A study of Mus musculus with 6 samples.

Results

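Epithelial-mesenchymal transition (EMT) is the switch by which epithelial cells loosen their junctions and take on a mesenchymal state, and 10 genes that regulate it were followed here in differentiated mouse embryonic stem cells. The genes were chosen by name and form 2 opposing groups. They are 6 repressors or promoters of the mesenchymal state (Snai1, Snai2, Zeb1, Zeb2, Twist1 and Prrx1) and 4 regulators of epithelial identity (Grhl2, Ovol2, Esrp1 and Esrp2). All 10 symbols were found among the 24393 genes listed in the files, and all 10 passed the filter on low counts, together with 13600 genes in all.

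RNA was measured in 3 CONTROL and 3 HOXA13 libraries of KH2 mouse embryonic stem cells, a line with a landing site for doxycycline-inducible genes, of strain C57/BL/6 as labelled. The HOXA13 group carries the human HOXA13 gene behind that inducible system, and both groups share the same protocol, with doxycycline at 1.25 µg/ml from day 4. Cells were differentiated on a layer of M15 cells, feeders of mesodermal origin, sorted on day 6 as positive for both CXCR4 and E-cadherin, and cultured for another day. The study's methods name 3 biological replicates for each group without saying whether each is a separate clone, so the p-values measure only the spread between these samples. These are bulk libraries, in which fewer cells of a type and less RNA per cell cannot be told apart.

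In gastrulation and in carcinoma, the Snail, Zeb and Twist proteins bind E-box motifs in promoters of epithelial genes, above all Cdh1 (E-cadherin), and switch them off. Grhl2 and Ovol2 hold the epithelial state by activating junction genes and by repressing Zeb genes, while Zeb proteins repress them in return. Esrp1 and Esrp2 act one step later, as splicing factors that direct epithelial isoforms of genes such as Fgfr2, Cd44 and Ctnnd1. Definitive endoderm, the germ layer of the gut, is known to form from cells that pass through a partial EMT at the primitive streak and then regain epithelial organisation.

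The libraries held between 12279884 and 17331638 counts, and a count of 3, taken as the detection floor, lay between 0.176 and 0.240 CPM (counts scaled to a library total, with TMM factors). This floor covers counting error only. The row under the human identifier ENSG00000106031, which the files do not pair with a symbol, had 0 counts in each CONTROL library and 2497, 7666 and 6572 counts in HOXA13 replicates 1, 2 and 3, so the labels and this row go together. The mouse gene Hoxa13 had at most 10 counts in any library. The 10 definitive endoderm markers summed to 156, 120 and 191 CPM in CONTROL and to 79.7, 120 and 80.9 CPM in HOXA13 replicates 1, 2 and 3. Most of that sum was Eomes, Gata6 and Gata4, while Cxcr4 had 2.25 to 11.3 CPM, Sox17 0.975 to 4.84 CPM and Foxa2 1.76 to 5.04 CPM, and Cer1 was at 0 counts in all 6 libraries. Eomes, a T-box factor of the primitive streak, had 89.0, 49.0 and 111 CPM in the CONTROL libraries against 24.4, 41.9 and 33.0 CPM in HOXA13, without overlap (log2 fold change -1.32, SE 0.33, edgeR adjusted p 0.141). Of the 9 markers tested edgeR called 0, and 1 was lower at an unadjusted p under 0.05, against 6.02% of all tested genes. DESeq2 called Eomes as lower, against 1.94% of all genes. Both limma voom and edgeR without CONTROL replicate 2 called Eomes and Gata6 as lower, against 6.34% and 6.32% of all genes. CONTROL replicate 2 stood apart from the other CONTROL libraries. Divided by its degrees of freedom, the chi-square of the counts was 28.7 for CONTROL replicates 1 and 3, and 136 and 106 for the pairs that include replicate 2. Among the HOXA13 libraries it was 16.5 for replicates 2 and 3, and 48.7 and 40.4 for the pairs that include replicate 1. HOXA13 replicate 1 held the lowest value of Zeb1, Zeb2, Prrx1 and Vim. For the 10 regulators and for gene lists whose calls change, values without CONTROL replicate 2 are given as well. For the 10 regulators, values without CONTROL replicate 1 are also given.

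All 4 epithelial regulators had a higher level in every HOXA13 library than in any CONTROL library, and all 6 repressors had a negative log2 fold change but overlapped between the groups. With edgeR's quasi-likelihood test, adjusted over 13600 genes, 0 of the 4 epithelial regulators and 0 of the 6 repressors passed an adjusted p of 0.05. At an unadjusted p under 0.05 the counts were 3 of 4, all higher, and 3 of 6, all lower, where 8.05% of all tested genes were higher and 6.02% lower at that p. This test called few genes of any kind, 0.265% of all tested genes as higher and 0.0441% as lower in HOXA13. An absence of overlap in the upward direction was found in 11.5% of all tested genes and in the downward direction in 8.52%, against 4 of 4 epithelial regulators upward and 0 of 6 repressors downward. Without CONTROL replicate 2 these counts were 4 of 4 and 5 of 6 (Prrx1, Snai2, Twist1, Zeb1 and Zeb2), where 25.3% and 23.9% of all tested genes did not overlap. The median log2 fold change was 1.40 over the epithelial regulators and -1.21 over the repressors, compared with -0.0132 over all tested genes.

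**Figure D1:**
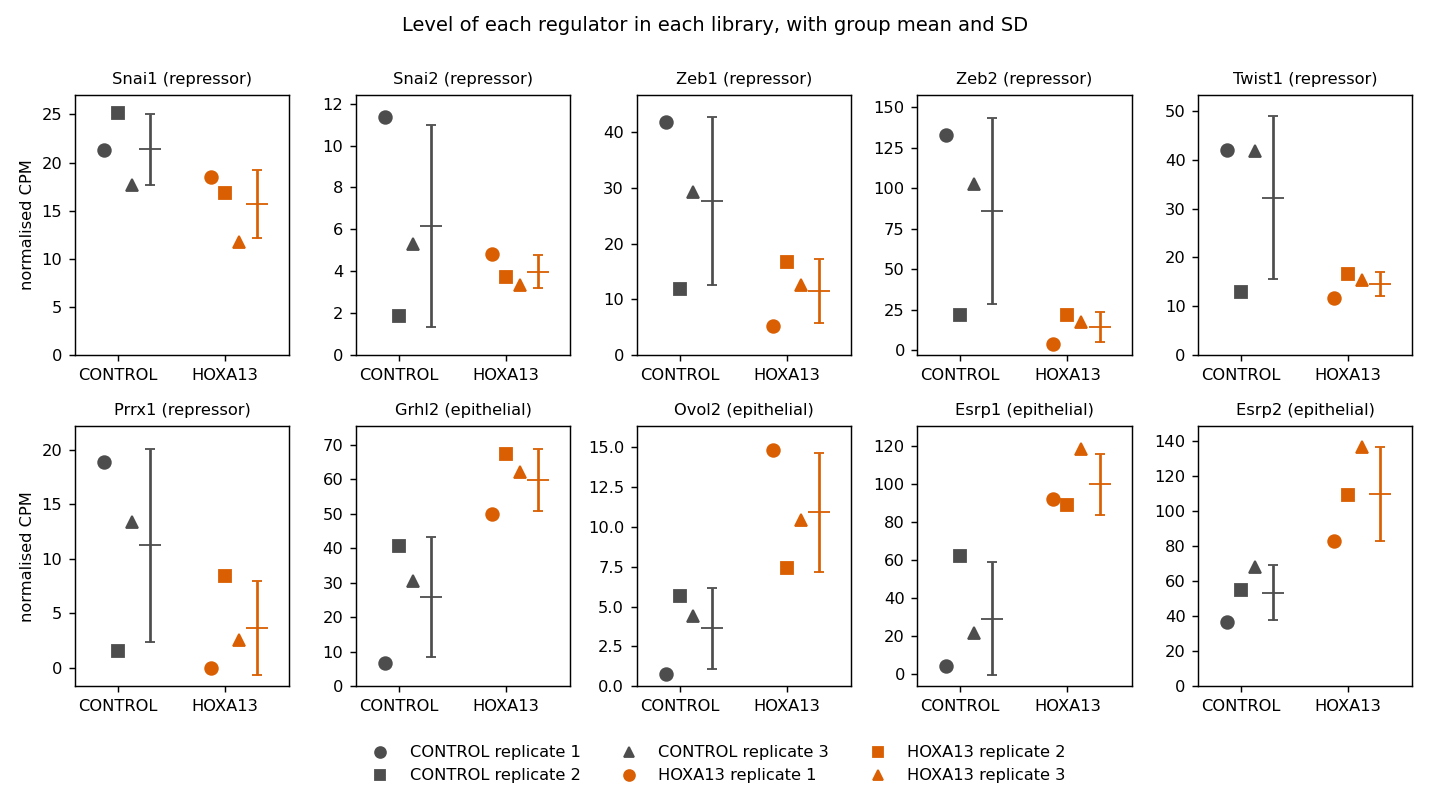
Normalised CPM of each of the 10 regulators (vertical axes, starting at or below 0, each panel on its own scale) in the 3 CONTROL and 3 HOXA13 libraries. Points are libraries, with the replicate number given by the shape, and the bar beside them is the mean with the SD. In the 4 epithelial panels the groups are separate, and in the Zeb1, Zeb2, Twist1 and Prrx1 panels CONTROL replicate 2 lies inside the HOXA13 range.

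The number of calls among the 10 genes depended on the tool and on 1 library. DESeq2, the tool of the study, called 1 member as higher (Esrp2) and 0 as lower, where it called 3.11% and 1.94% of the genes it adjusted. The limma voom fit with sample quality weights, which gives less weight to libraries that deviate, called 3 as higher (Esrp1, Esrp2 and Grhl2) and 3 as lower (Zeb1, Zeb2 and Twist1), against 9.11% and 6.34% of all genes. When CONTROL replicate 2 was left out of the edgeR fit, 2 were called higher (Esrp1 and Esrp2) and 3 lower (Zeb1, Zeb2 and Twist1), against 7.92% and 6.32% of all genes. Leaving out any other library gave 0 members called in either direction, in fits that called 0 to 7 genes in all. Without CONTROL replicate 1 the log2 fold change was -0.856 for Zeb1, -2.13 for Zeb2, -0.931 for Twist1 and -1.04 for Prrx1. It was 1.08 for Ovol2, 1.24 for Esrp1 and 0.813 for Esrp2. Each was smaller in size than with all 6 libraries (edgeR adjusted p from 0.395 to 0.931). Snai1 was at -0.473 (edgeR adjusted p 0.759), slightly larger in size. The edgeR 4 method with all 6 libraries called 0 members as higher and 0 as lower, where it called only 106 genes in all.

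Grhl2 encodes a grainyhead-family activator of junction genes such as Cdh1 and Cldn4 (mm9, chromosome 15, 37162791 to 37293324, plus strand). Its level was 6.67, 40.7 and 30.5 CPM in CONTROL replicates 1 to 3, compared with 50.0, 67.4 and 62.2 CPM in HOXA13 replicates 1, 2 and 3. The groups did not overlap, but CONTROL replicate 1 lay far under the other CONTROL libraries. The mean was 25.9 ± 17.5 CPM for CONTROL against 59.8 ± 8.95 CPM in HOXA13 (SD, n = 3), and the log2 fold change of 1.21 (SE 0.54) had an edgeR adjusted p of 0.375. The log2 fold change was 0.73 (edgeR adjusted p 0.426) without CONTROL replicate 1 and 1.67 (edgeR adjusted p 0.0625) without CONTROL replicate 2. Of 15 alternative settings, limma voom alone passed the threshold, with an adjusted p of 0.0221, and the others reached up to 0.716.

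Ovol2 encodes a zinc-finger repressor that keeps EMT genes such as Zeb1 off in epithelia (chromosome 2, 144130911 to 144157882, minus strand). It had the lowest CPM of the 4 epithelial regulators. Its values were 0.780, 5.68 and 4.42 CPM in the CONTROL libraries against 14.8, 7.44 and 10.4 CPM in HOXA13 replicates 1, 2 and 3, without overlap. The ratio of the group means was 3.00, and the log2 fold change of 1.59 (SE 0.68) had an edgeR adjusted p of 0.351. In 15 alternative settings the adjusted p was between 0.0751 and 0.694, and without CONTROL replicate 2 the log2 fold change was 2.05 (edgeR adjusted p 0.0874). Exons of Ovol2 share 359 bases with 1700108N11Rik on the opposite strand. The libraries are stranded, but the strand option of the counting is not given in the sources used here, so the share of reads from each strand is uncertain.

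Esrp1 had the largest mean difference in CPM relative to CONTROL of the 4, with a ratio of the means of 3.45 (chromosome 4, 11259080 to 11313930, minus strand). It is an RNA-binding splicing regulator restricted to epithelia. CONTROL replicates 1, 2 and 3 had 3.76, 61.8 and 21.3 CPM, and HOXA13 replicates had 92.1, 89.0 and 118 CPM. On the log2 scale the CONTROL libraries spanned 3.99 and the HOXA13 libraries 0.411, so the gene was uneven among controls and even among HOXA13 libraries. The log2 fold change was 1.79 (SE 0.77) with an edgeR adjusted p of 0.351. It became 2.98 with an edgeR adjusted p of 0.0117 when CONTROL replicate 2 was left out.

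Esrp2, the paralog with overlapping splicing targets, differed by a smaller ratio of 2.06 but varied less among the CONTROL libraries (chromosome 8, 108654219 to 108660874, minus strand). Its level was 36.8, 55.2 and 68.1 CPM in the CONTROL libraries against 83.2, 110 and 137 CPM in HOXA13 replicates 1, 2 and 3, again without overlap. The CONTROL libraries spanned 0.885 on the log2 scale, the narrowest span of the 4 genes, and the HOXA13 libraries 0.715, wider than those of Esrp1 and Grhl2. Its log2 fold change of 1.04 (SE 0.28) had the lowest edgeR p of the 10 genes, 0.00527 unadjusted and 0.150 adjusted. DESeq2 called it with an adjusted p of 0.0224, and leaving out CONTROL replicate 2 gave an edgeR adjusted p of 0.0473. Esrp2 exons share 219 bases with Nfatc3 and 119 with 1810019D21Rik, both on the opposite strand.

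Zeb2, a zinc-finger and homeodomain repressor of Cdh1, had the largest difference of the repressors (chromosome 2, 44839154 to 44972915, minus strand). It stood at 133, 21.7 and 103 CPM in CONTROL and at 3.84, 21.7 and 17.5 CPM in HOXA13 replicates 1, 2 and 3. CONTROL replicates 1 and 3 were far above all other libraries, and CONTROL replicate 2 was level with HOXA13 replicate 2. The CONTROL mean was 5.98 times the HOXA13 mean, and the log2 fold change of -2.58 (SE 0.76) had an edgeR p of 0.00959 and an adjusted p of 0.186. Without CONTROL replicate 2 the log2 fold change was -3.04 and the edgeR adjusted p 0.00753. Scaling on total counts, RLE factors or upper quartile factors each placed HOXA13 replicate 2 just under CONTROL replicate 2, so that the groups then did not overlap. Exons of Zeb2 share 458 bases with Gm13476 on the opposite strand.

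Zeb1, its paralog, was likewise highest in CONTROL replicates 1 and 3, at a lower level (chromosome 18, 5591858 to 5775465, plus strand). Its values were 41.8, 11.9 and 29.2 CPM in the CONTROL libraries against 5.23, 16.8 and 12.5 CPM in HOXA13. HOXA13 replicates 2 and 3 were above CONTROL replicate 2, so the groups overlapped. The log2 fold change was -1.26 (SE 0.54) with an edgeR adjusted p of 0.349, and it was -1.64 with an edgeR adjusted p of 0.0359 when CONTROL replicate 2 was left out.

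Twist1 encodes a basic helix-loop-helix factor of mesoderm and neural crest that can induce EMT (chromosome 12, 34642536 to 34644682, plus strand). It had 42.0, 13.0 and 41.8 CPM in the CONTROL libraries against 11.7, 16.6 and 15.3 CPM in HOXA13 replicates. CONTROL replicates 1 and 3 were almost equal, and CONTROL replicate 2 lay inside the HOXA13 range. The log2 fold change of -1.15 (SE 0.44) had an edgeR adjusted p of 0.290, which was 0.00504 with a log2 fold change of -1.54 when CONTROL replicate 2 was left out.

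Prrx1 encodes a paired-type homeodomain factor of limb and head mesenchyme (chromosome 1, 165175247 to 165243841, minus strand), and it was the most uneven member. It stood at 18.9, 1.52 and 13.4 CPM in CONTROL and at 0, 8.44 and 2.49 CPM in HOXA13 replicates 1, 2 and 3. HOXA13 replicate 1 had 0 counts, which allows a level of up to 0.231 CPM at its depth, and HOXA13 replicate 2 was well above CONTROL replicate 2. The log2 fold change of -1.62 (SE 1.32) did not exceed the spread between replicates (edgeR adjusted p 0.662), and without CONTROL replicate 2 it was -2.14 (edgeR adjusted p 0.233). The median on chromosome 1 (476 genes) was a log2 fold change of 0.54. With an offset that removes such chromosome-wide medians from each library, Prrx1 was at -2.17 with an edgeR adjusted p of 0.576.

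The Snail genes differed least. Snai1, the zinc-finger repressor that starts EMT at gastrulation (chromosome 2, 167363695 to 167368314, plus strand), had 21.3, 25.1 and 17.7 CPM in the CONTROL libraries against 18.4, 16.9 and 11.8 CPM in HOXA13 replicates 1, 2 and 3. Its 6 values were close to each other, and unlike the other repressors its highest value was in CONTROL replicate 2. The log2 fold change was -0.45 (SE 0.28), with an edgeR adjusted p of 0.542, and -0.33 with one of 0.514 without CONTROL replicate 2. Snai2, or Slug, the paralog used in neural crest (chromosome 16, 14705945 to 14709488, plus strand), had 11.3, 1.84 and 5.32 CPM in the CONTROL libraries against 4.84, 3.75 and 3.33 CPM in HOXA13. Its log2 fold change of -0.64 (SE 0.67) was below its error, with an edgeR adjusted p of 0.744, and it changed sign to 0.12 when CONTROL replicate 1 was left out and was -1.08 (edgeR adjusted p 0.192) without CONTROL replicate 2.

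**Figure D2:**
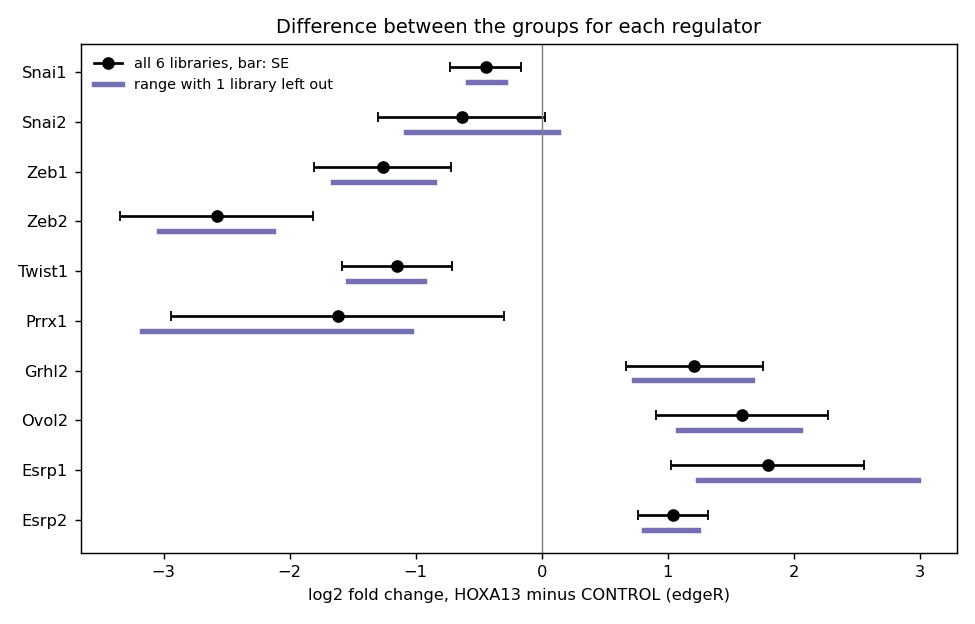
Log2 fold change (HOXA13 minus CONTROL, edgeR, horizontal axis) of each regulator. Black points with bars give the fit to all 6 libraries with its SE, and purple lines the range when 1 library was left out. The purple line crosses 0 only for Snai2, where it ends at 0.12, and it is longest for Prrx1, from -3.17 to -1.04.

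Promoter windows were read to show where the E-box of the Snail and Zeb proteins occurs in genes of this set. Windows of 300 bases (250 before to 50 after the start, RefSeq, GRCm38.p6, a later build than the mm9 positions above) were given for 5 of the 10 members, Snai1, Zeb2, Twist1, Prrx1 and Ovol2, and for Epcam of the epithelial genes. The motif searched was CACCTG, which reads CAGGTG on the other strand and is one form of the general E-box CANNTG. Of all 32851 windows in the table, 20.2% held CACCTG or CAGGTG and 72.3% held CANNTG. Of the 8 member windows, that of Snai1 held 1 match, and those of Zeb2 (4 windows), Twist1, Prrx1 and Ovol2 held none of either form.

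The windows of Snai1 and Epcam are printed because they hold the motif, and that of Ovol2 because it is the one epithelial regulator with a window, each 5′ to 3′ on the strand of the gene with CACCTG or CAGGTG in capitals. The Snai1 window is chr2:167537945-167538244, plus strand, with the match at position -126 from the start. The Epcam window is chr17:87635729-87636028, plus strand, with matches at positions -187 and -19. The Ovol2 window is chr2:144331313-144331612, minus strand, and has no match. A match of letters is a description and not a bound site.
Snai1: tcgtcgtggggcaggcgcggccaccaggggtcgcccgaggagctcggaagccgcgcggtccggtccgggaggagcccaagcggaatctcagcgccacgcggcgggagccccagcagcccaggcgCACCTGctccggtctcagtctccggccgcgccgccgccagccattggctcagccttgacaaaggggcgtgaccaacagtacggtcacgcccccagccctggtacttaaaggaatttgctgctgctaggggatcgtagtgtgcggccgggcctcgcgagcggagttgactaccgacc
Epcam: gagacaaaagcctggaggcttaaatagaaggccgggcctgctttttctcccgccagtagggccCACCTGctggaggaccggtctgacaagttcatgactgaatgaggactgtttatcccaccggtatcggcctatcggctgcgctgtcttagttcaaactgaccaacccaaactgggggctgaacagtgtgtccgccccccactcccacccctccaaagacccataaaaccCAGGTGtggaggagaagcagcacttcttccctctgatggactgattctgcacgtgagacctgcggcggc
Ovol2: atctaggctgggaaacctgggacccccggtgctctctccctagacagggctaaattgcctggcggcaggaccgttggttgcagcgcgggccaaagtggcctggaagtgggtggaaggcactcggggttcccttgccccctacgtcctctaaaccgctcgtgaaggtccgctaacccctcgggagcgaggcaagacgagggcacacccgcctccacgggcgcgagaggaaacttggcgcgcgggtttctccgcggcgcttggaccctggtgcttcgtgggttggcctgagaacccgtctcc

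Levels were compared between the 10 genes per kilobase of merged exon length (GENCODE M1), since raw CPM favours long transcripts. In CONTROL the highest mean was that of Twist1 (19.9 ± 10.3 CPM per kilobase, SD, n = 3), followed by Snai1 (13.2 ± 2.28) and Esrp2 (12.3 ± 3.62), whose ranges over the 3 libraries overlapped. The lowest was Prrx1 at 1.02 ± 0.801 CPM per kilobase, with a range that overlapped those of Ovol2 (1.72 ± 1.20) and Zeb1 (2.85 ± 1.55). In HOXA13 the 3 highest were Esrp2 (25.3 ± 6.16), Esrp1 (15.8 ± 2.56) and Grhl2 (10.9 ± 1.62 CPM per kilobase). Esrp2 (19.2 to 31.5) did not overlap with Esrp1 (14.1 to 18.8), and Esrp1 did not overlap with Grhl2 (9.07 to 12.2). Snai1 (9.68 ± 2.15) and Twist1 (8.99 ± 1.58) came next and overlapped with Grhl2 and with each other. Zeb2 was at 5.59 ± 3.75 CPM per kilobase in CONTROL and 0.933 ± 0.608 in HOXA13.

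A balance was formed for each library as the mean of the 4 epithelial regulators minus the mean of the 6 repressors, on log2 CPM centred on the 6 libraries. It was -3.81, 0.63 and -1.40 in CONTROL replicates 1 to 3, against 2.41, 0.68 and 1.49 in HOXA13 replicates 1, 2 and 3. CONTROL replicate 2 was thus almost level with HOXA13 replicate 2, and the other CONTROL libraries were far lower. Split into its parts, the epithelial mean was -2.34, 0.11 and -0.39 in CONTROL and 0.82, 0.77 and 1.04 in HOXA13, while the repressor mean was 1.47, -0.52 and 1.01 in CONTROL and -1.59, 0.085 and -0.45 in HOXA13. The epithelial part separated the groups and varied little within HOXA13, whereas the repressor part overlapped and was uneven in both groups. The repressor mean of HOXA13 replicate 1 includes Prrx1 at 0 counts, with a centred value of -4.58 that the prior count sets. With prior counts of 0.5 and 5 in place of 2, that mean was -1.87 and -1.41, and the balance of that library 2.70 and 2.20.

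**Figure D3:**
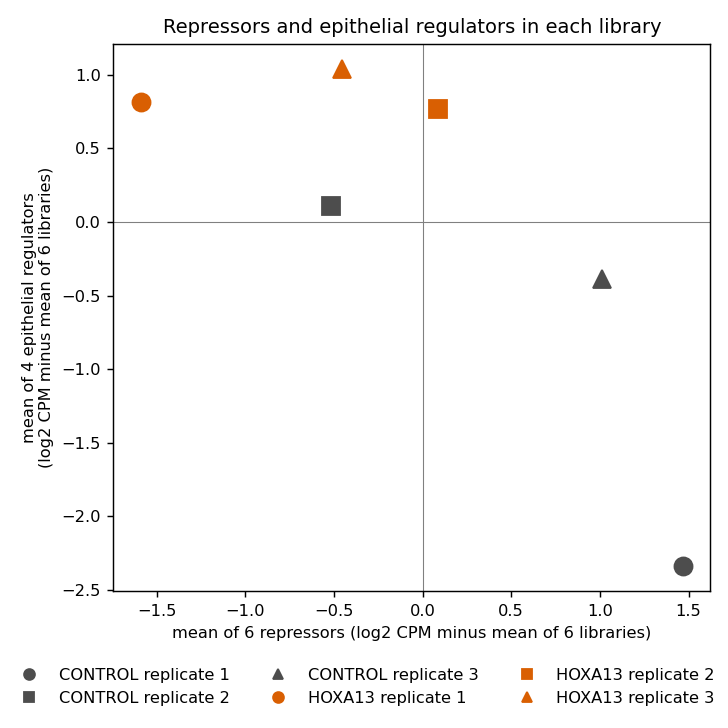
Mean of the 4 epithelial regulators (vertical) against the mean of the 6 repressors (horizontal) in each library, both as log2 CPM minus the mean of the 6 libraries. Each point is 1 library. CONTROL replicate 1 lies lowest on the vertical axis at -2.34 and farthest to the right at 1.47, and the HOXA13 libraries lie between 0.77 and 1.04 on the vertical axis.

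Further factors of both programmes were taken from lists of fixed membership. Of 16 other epithelial factors 13 were tested and all 13 had a positive log2 fold change, with a median of 1.28. Of these, 7 did not overlap, against 11.5% of all tested genes in the upward direction. With edgeR 0 of them were called, and 6 were higher at an unadjusted p under 0.05 (8.05% of all tested genes). The edgeR 4 method called 1 as higher, where it called 106 genes in all. DESeq2 called 5, limma voom 9 and edgeR without CONTROL replicate 2 called 9, all as higher. Those fits called 3.11%, 9.11% and 7.92% of all genes as higher. Grhl1, a grainyhead paralog of Grhl2, had 3.62, 13.0 and 5.02 CPM in the CONTROL libraries against 42.7, 54.7 and 71.7 CPM in HOXA13, a log2 fold change of 2.97 (SE 0.49) with an edgeR adjusted p of 0.0619. Its difference was larger than that of Grhl2, and every HOXA13 value was over 3 times the highest CONTROL value. Ovol1, the paralog of Ovol2, had a log2 fold change of 2.05 (SE 0.46, edgeR adjusted p 0.111).

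Among 16 other EMT factors, of which 15 were tested, the direction was mixed, with 11 below 0 and a median log2 fold change of -0.35. Here edgeR called 0, with 5 at an unadjusted p under 0.05 (1 higher and 4 lower). At that p 8.05% of all tested genes were higher and 6.02% lower. The limma voom fit called 6 (1 higher and 5 lower), against 9.11% and 6.34% of all genes. DESeq2 called 3 (1 higher and 2 lower), which were Sox9, Id3 and Prrx2, against 3.11% and 1.94%. Without CONTROL replicate 2 edgeR called 5 (1 higher and 4 lower), against 7.92% and 6.32%. Sox9, a factor of cartilage, neural crest and gut progenitors, had 22.2, 20.6 and 20.3 CPM in the CONTROL libraries against 36.0, 80.7 and 69.4 CPM in HOXA13, without overlap (log2 fold change 1.56, SE 0.31, edgeR adjusted p 0.0899). Id3, an inhibitor of basic helix-loop-helix factors such as Twist1 and a target of BMP signalling, had 142, 82.3 and 147 CPM in the CONTROL libraries against 51.9, 63.3 and 47.3 CPM in HOXA13, also without overlap (log2 fold change -1.19, SE 0.25, edgeR adjusted p 0.102). Prrx2, the paralog of Prrx1, stood at 83.0, 12.5 and 80.2 CPM in CONTROL and between 13.9 and 19.6 CPM in HOXA13. As for Twist1, CONTROL replicate 2 was the library that overlapped with HOXA13 (log2 fold change -1.77, edgeR adjusted p 0.244). Without that library it was -2.26 with an edgeR adjusted p of 0.000754.

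Of 25 epithelial genes that the repressors or Grhl2 are known to act on, all 25 were tested and had a positive log2 fold change. The median was 1.28, and 20 did not overlap, against 11.5% of all tested genes in the upward direction. Patj was matched under its older symbol Inadl. With edgeR 0 were called, and 16 were higher at an unadjusted p under 0.05 (8.05% of all tested genes). DESeq2 called 5, limma voom 22 and edgeR without CONTROL replicate 2 called 21, all as higher. The shares of all genes called higher by these fits were 3.11%, 9.11% and 7.92%. Cdh1, the target that defines this pathway and a sorting marker here, had 192, 1292 and 702 CPM in the CONTROL libraries against 1732, 1690 and 1893 CPM in HOXA13, a log2 fold change of 1.28 (SE 0.55, edgeR adjusted p 0.351). It was 1.97 (edgeR adjusted p 0.0216) without CONTROL replicate 2 and 0.81 (edgeR adjusted p 0.403) without CONTROL replicate 1. Krt19, Pkp3 and Prss8 had the lowest p-values, with log2 fold changes of 1.38, 1.81 and 1.88 and edgeR adjusted p-values of 0.102, 0.164 and 0.174. Epcam overlapped between the groups, at 18.7, 392 and 75.0 CPM in the CONTROL libraries against 240 to 413 CPM in HOXA13, through CONTROL replicate 2 alone. Its log2 fold change was 0.93 (SE 0.87, edgeR adjusted p 0.710), 2.69 (edgeR adjusted p 0.0116) without CONTROL replicate 2, and 0.37 (edgeR adjusted p 0.945) without CONTROL replicate 1. With limma voom it was 2.29 with an adjusted p of 0.0130.

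Of 25 mesenchymal genes 23 were tested, 18 had a negative and 5 a positive log2 fold change, and the median was -1.43. The groups did not overlap for 2 higher genes (Tgfbi and Thy1) and 3 lower ones (Mmp2, Sparc and Postn), against 11.5% and 8.52% of all tested genes. Mmp2, a matrix metalloprotease, had 194, 16.6 and 78.6 CPM in the CONTROL libraries against 3.54, 5.92 and 4.37 CPM in HOXA13 (log2 fold change -4.38, SE 0.81, edgeR adjusted p 0.0772). Sparc, a matrix glycoprotein, had a log2 fold change of -1.43 (SE 0.30, edgeR adjusted p 0.102). By edgeR 1 was called, where 0.265% of all tested genes were called higher. This was Tgfbi, a secreted matrix protein, and it was higher in HOXA13. It had 13.2, 10.1 and 12.1 CPM in the CONTROL libraries against 29.6, 42.3 and 45.8 CPM in HOXA13 (log2 fold change 1.73, SE 0.26, edgeR adjusted p 0.0470). This call did not hold with RLE factors (edgeR adjusted p 0.0502), a mean of at least 50 counts (0.0523), the chromosome offset (0.0666) or the replicate block (0.201), and leaving out any library other than CONTROL replicate 2 gave adjusted p-values from 0.0737 to 0.388. No mesenchymal gene was called lower by edgeR (0 genes), and 8 were lower at an unadjusted p under 0.05 (6.02% of all tested genes). DESeq2 called 4 lower, limma voom 7 and edgeR without CONTROL replicate 2 called 9. Over all genes these fits called 1.94%, 6.34% and 6.32% as lower. Vim, which encodes the intermediate filament vimentin, had 4351, 548 and 3576 CPM in the CONTROL libraries against 155, 722 and 481 CPM in HOXA13, with CONTROL replicate 2 inside the HOXA13 range (log2 fold change -2.64, edgeR adjusted p 0.186, and -3.14 with 0.00525 without CONTROL replicate 2). Cdh2, or N-cadherin, had 417, 101 and 396 CPM in the CONTROL libraries against 116 to 124 CPM in HOXA13 (log2 fold change -1.34, edgeR adjusted p 0.241, and -1.77 with 0.000364 without CONTROL replicate 2). Vim and Cdh2 were highest in CONTROL replicates 1 and 3, as were Zeb2, Zeb1 and Twist1.

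**Figure D4:**
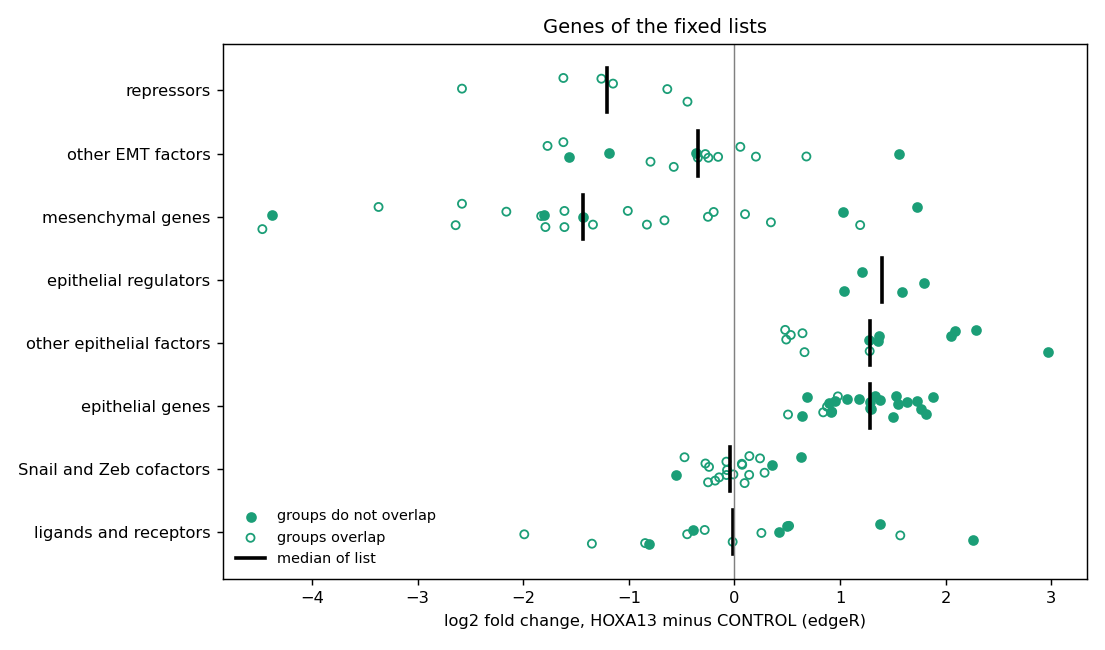
Log2 fold change (HOXA13 minus CONTROL, edgeR, horizontal axis) of every tested gene of the 8 lists. Filled points are genes whose groups do not overlap, open points those that overlap, and black bars list medians. The 3 epithelial lists lie wholly above 0, with medians of 1.40, 1.28 and 1.28, and the repressors wholly below 0.

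The cofactors and degradation machinery of Snail and Zeb proteins had a median near that of all genes. Of 20 such genes, among them the corepressors Ctbp1 and Ctbp2 and the kinase Gsk3b that marks Snai1 for destruction, all were tested, 9 were above and 11 below 0, and the median log2 fold change was -0.0404. Both edgeR and DESeq2 called 0, where DESeq2 called 3.11% of all genes higher and 1.94% lower. In edgeR 2 had an unadjusted p under 0.05 (1 higher and 1 lower), against 8.05% and 6.02% of all tested genes. The limma voom fit called 2, Usp37 as higher and Hdac2 as lower, against 9.11% and 6.34% of all genes. Without CONTROL replicate 2 edgeR called Usp37, Hdac2 and Ajuba (2 higher and 1 lower), against 7.92% and 6.32%. Usp37, a deubiquitinase that stabilises Snai1, had a log2 fold change of 0.63 (SE 0.17, edgeR adjusted p 0.167), but it lies on chromosome 1 and was at 0.046 with the chromosome offset. Hdac2, a histone deacetylase in Snail corepressor complexes, had one of -0.56 (SE 0.18, edgeR adjusted p 0.219). Suv39h1, a histone methyltransferase recruited by Snai1, had 0.36 (SE 0.17, edgeR adjusted p 0.418).

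Ligands and receptors that induce or oppose EMT had a median near that of all genes. Of 16 genes 15 were tested, 7 above and 8 below 0, with a median log2 fold change of -0.0172. The groups did not overlap for 4 higher and 2 lower genes, against 11.5% and 8.52% of all tested genes, so single genes differed in both directions. With edgeR 0 were called, with 5 at an unadjusted p under 0.05 (3 higher and 2 lower). At that p 8.05% of all tested genes were higher and 6.02% lower. DESeq2, and edgeR without CONTROL replicate 2, called Bmp7 and Pdgfb as higher and Bmp4 and Wnt5a as lower. Over all genes DESeq2 called 3.11% higher and 1.94% lower, and edgeR without that library 7.92% and 6.32%. The limma voom fit called these 4 and Tgfb2 (2 higher and 3 lower), against 9.11% and 6.34% of all genes. Bmp7, which can oppose EMT, had 7.59, 13.7 and 8.17 CPM in the CONTROL libraries against 22.5, 47.8 and 70.9 CPM in HOXA13 (log2 fold change 2.26, SE 0.45, edgeR adjusted p 0.0904). Bmp4, a mesoderm-inducing ligand, was even among replicates, at 157, 149 and 152 CPM in the CONTROL libraries against 96.9, 78.2 and 85.6 CPM in HOXA13 (log2 fold change -0.81, SE 0.149, edgeR adjusted p 0.0768). It lies on chromosome 14, where the median log2 fold change was 0.33, and with the chromosome offset its value was -1.20. Pdgfb, a growth factor for mesenchymal cells, had a log2 fold change of 1.38 (SE 0.38, edgeR adjusted p 0.161).

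Genes with the pattern most like that of Grhl2 and Zeb1 were found among 10725 genes of at least 5 CPM, by the root mean squared difference of centred log2 CPM over the 6 libraries. Nearest to Grhl2 were Susd1 (0.144), Prss16 (0.175), Mapk13 (0.190), Ocln (0.197) and Cdh1 (0.201 on the log2 scale). Ocln, which encodes the tight junction protein occludin, stood at 9.79, 57.7 and 30.5 CPM in the CONTROL libraries against 70.5, 78.2 and 73.8 CPM in HOXA13. Nearest to Zeb1 were Fam149a (0.121), Mxra8 (0.181), Efnb2 (0.182), 9130023H24Rik (0.183) and Akr1b8 (0.201). Mxra8, a membrane protein of mesenchymal cells, stood at 119, 30.4 and 98.8 CPM in the CONTROL libraries against 17.4, 40.5 and 33.4 CPM in HOXA13. These genes were chosen for their likeness over the same 6 libraries, so their levels are a description.

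A list of Y-linked genes and marker lists of other cells also varied between libraries. The summed level of 4 Y-linked genes was 8.65, 0 and 134 CPM in CONTROL replicates 1, 2 and 3 and at most 0.469 CPM in a HOXA13 library. It was thus detected mainly in CONTROL replicates 1 and 3, which also had high Zeb2, Twist1 and Vim. The order differed, since CONTROL replicate 1 had the lower Y-linked sum but the higher Zeb2 and Vim of these libraries. Kdm5d was at 0 in all libraries. None of the 4 passed the filter on low counts with all libraries. Without CONTROL replicate 2 edgeR called 3 as lower (Ddx3y, Eif2s3y and Uty), against 6.32% of all genes. The 10 pluripotency genes summed to 38.7, 1190 and 95.4 CPM in the CONTROL libraries against 547, 209 and 257 CPM in HOXA13, highest in CONTROL replicate 2. Of the pluripotency genes 4 were above and 6 below 0 in the main edgeR fit (median log2 fold change -0.716). Without CONTROL replicate 2, 9 were above and 1 below 0 (median 2.21). The main fit called 0 (0 at an unadjusted p under 0.05), and DESeq2 called 0. The limma voom fit called 3 as higher and edgeR without CONTROL replicate 2 called 5 as higher, against 9.11% and 7.92% of all genes. The mesenchymal list summed to 16615, 4505 and 13561 CPM in the CONTROL libraries against 3480, 7601 and 7362 CPM in HOXA13. Of the 14 mesonephric genes, chosen for the feeder line, 10 were tested and 9 had a negative log2 fold change (median -0.61), 0 were called by edgeR with or without CONTROL replicate 2, DESeq2 or limma voom (0 at an unadjusted p under 0.05 in edgeR), and their summed level of 65.2 to 85.5 CPM in CONTROL overlapped with 40.6 to 73.9 CPM in HOXA13. Of these, Wt1 had 0 to 6.64 CPM, Osr1 0.400 to 1.17 CPM and Tcf21 at most 0.117 CPM. The 7 mesoderm genes summed to 148, 134 and 188 CPM in the CONTROL libraries against 65.7, 69.1 and 52.2 CPM in HOXA13, a sum that did not overlap and of which Kdr was the largest part, whereas the mean of the tested genes on centred log2 CPM overlapped (-1.14 to 1.04 in CONTROL and -0.19 to 0.10 in HOXA13). Of the 4 tested, edgeR called 0, and 2 were lower at an unadjusted p under 0.05 (6.02% of all tested genes). DESeq2 called Kdr as lower and limma voom Kdr and Hand1 as lower, against 1.94% and 6.34% of all genes. Without CONTROL replicate 2 edgeR called Kdr as lower and T as higher, against 6.32% and 7.92%. Kdr, a receptor of early mesoderm and endothelium, had 125, 66.8 and 137 CPM in the CONTROL libraries against 44.3, 43.6 and 27.9 CPM in HOXA13 (log2 fold change -1.51, SE 0.31, edgeR adjusted p 0.0999). The visceral endoderm list summed to 13.3 to 19.6 CPM in CONTROL and 8.49 to 14.4 CPM in HOXA13. Of its 10 genes 5 were tested, all with a negative log2 fold change (median -0.99). Of these, 1 did not overlap (Cubn), against 8.52% of all tested genes in the downward direction. By edgeR, DESeq2 or limma voom 0 were called (0 at an unadjusted p under 0.05 in edgeR). Afp, Ttr and Apoc2 were at 0 counts in all 6 libraries. The 5 blood genes summed to 34.3 to 45.5 CPM over all 6 libraries, mostly Cd68, with Ptprc at most at 2.40 CPM and Hbb-b1 and Hba-a1 at 0. The part of other cells in the differences of the 10 regulators was not tested.

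**Figure D5:**
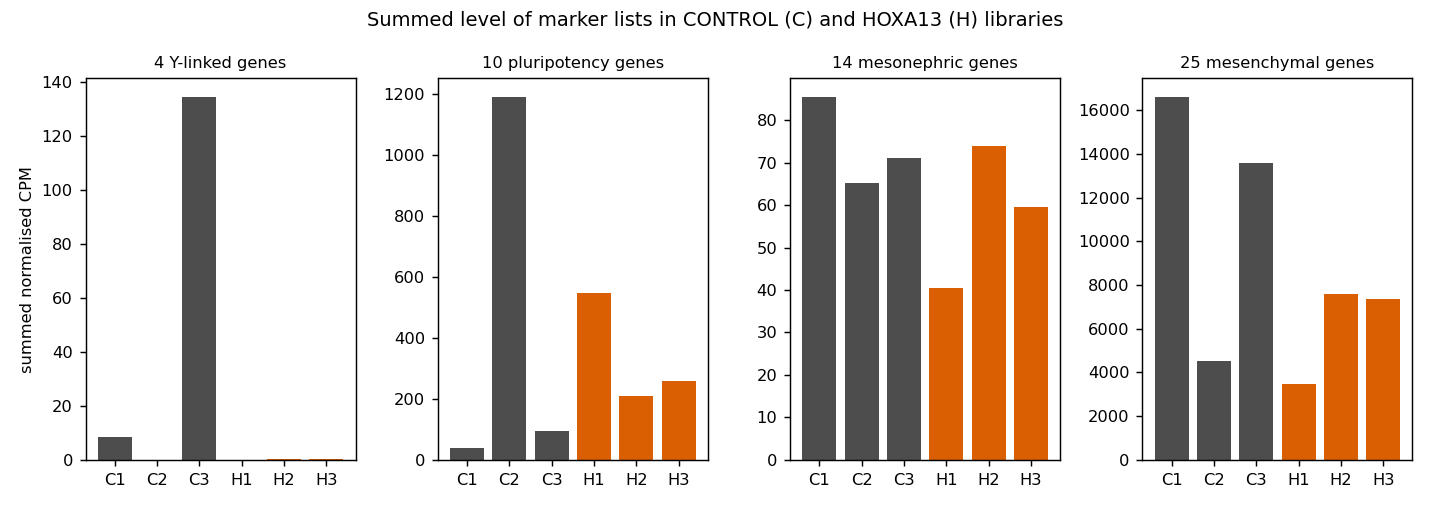
Summed normalised CPM (vertical axes from 0, each on its own scale) of 4 marker lists in the CONTROL (C1 to C3, grey) and HOXA13 (H1 to H3, orange) libraries. The Y-linked sum peaks in CONTROL replicate 3 at 134 CPM, the pluripotency sum in CONTROL replicate 2 at 1190 CPM, and the mesenchymal sum in CONTROL replicate 1 at 16615 CPM.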

How the data were processed

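Each library has 1 deposited file of unnormalised counts by gene symbol, for which the authors aligned reads of stranded poly-A libraries to mm9 with TopHat2 (2.0.14 in the submitters' processing notes) and counted them with HTSeq 0.6.1p1. The annotation, strand option and treatment of multiple alignments are not given in the sources used here. The test was edgeR 4.0.16 (R 4.3.3) over all 6 libraries, with filterByExpr (minimum count 10, minimum total 15), TMM factors, glmQLFit and glmQLFTest on group alone, and Benjamini-Hochberg adjustment over 13600 genes at 0.05. A gene is said to be called when it passes that threshold. Standard errors were derived from the F statistic, and CPM use TMM-scaled library sizes. Centred log2 CPM use a prior count of 2. Alternatives were DESeq2 1.42.0, limma 3.58.1 voom with quality weights, the edgeR 4 method, other scalings and filters, a replicate block, a chromosome offset (medians over genes of at least 16 CPM) and each library left out. Positions and exon lengths are from GENCODE M1 (mm9), which gave a position for 92.4% of tested genes. The scripts were tested on simulated data.

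The 10 members, the gene lists and the tests were chosen with earlier results of these data known. Named genes are the members, any gene of a list that edgeR called or otherwise the 3 with the lowest p, Cdh1, Epcam, Vim, Cdh2, Cxcr4, and the 5 genes nearest in pattern to Grhl2 and to Zeb1. Other genes were named after their values were seen. One gene that this rule names is not reported here.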

Additional observations from a re-analysis of the deposited data

How the results depend on the processing

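Of 15 alternative settings, none changed the sign of 9 of the 10 regulators. The exception was Snai2, at 0.12 without CONTROL replicate 1, within a range of -1.08 to 0.125 when 1 library was left out. For 6 regulators at least 1 setting passed the threshold. The limma voom fit called all 6 of them, and it called 9.11% of all genes as higher and 6.34% as lower. The share of all genes that passed in at least 1 setting was not computed. None of the 30 other named genes changed sign. Many of them were picked for a low p or for their pattern in these same libraries. That choice favours a stable sign, so this count is a description only. Members called higher numbered 1 with DESeq2, 3 with limma voom and 0 to 2 with 1 library left out, against 0, and members called lower 3 with limma voom and 0 to 3 with 1 library left out. Members without overlap and lower numbered 1 (Zeb2) with CPM on total counts, 1 with RLE and 1 with upper quartile factors, and 0 to 5 with 1 library left out, against 0, the 5 without CONTROL replicate 2. Over all genes 42 were called, against 722 with DESeq2, 2101 with limma voom, 106 with the edgeR 4 method, 163 unfiltered, 9 among genes averaging 50 counts or more, 1 with the chromosome offset, and 0 to 2006 with 1 library left out, the highest without CONTROL replicate 2. The cause was not tested.

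With the replicate block 0 genes were called (1392 at an unadjusted p under 0.05) and 0 members. Same-numbered libraries correlated in their deviations at -0.210, -0.271 and 0.0979 across genes. No HOXA13 library correlated best with its own number except replicate 3, at 0.0979 against 0.0973 with CONTROL replicate 1. Deviations from a mean of 3 libraries are tied to each other, so these values cannot decide whether same-numbered libraries were paired. Each member but Prrx1 had at least 11 counts in every library, and what depth limits was not tested.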
